A study of Homo sapiens with 4 samples.

Results

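The 10 genes described here encode the Rel family subunits of the transcription factor NF-kB (NFKB1, NFKB2, REL, RELA and RELB), its inhibitors (NFKBIA and NFKBIE) and its feedback or target genes (TNFAIP3, BIRC3 and CD83). All probe sets that the platform annotation assigns to 1 of these symbols alone were taken, which gave 14 of 22277 probe sets, for 9 of the 10 symbols; BIRC3 was the symbol to which the annotation used here assigned none, and it has no value below. RNA was measured in 4 groups of 1 array each: BV-173 cells after 16 h in 10 μmol/l STI571, untreated BV-173 cells, SUP-B15 cells after the same treatment, and untreated SUP-B15 cells. BV-173 and SUP-B15 are human leukemia lines that the study describes as Philadelphia chromosome-positive acute lymphoblastic leukemia, so all 4 groups carry the BCR-ABL1 fusion kinase, and STI571 (imatinib) inhibits that kinase. Each line stands for 1 leukemia, and no group has a replicate, so 1 array is all that stands behind each value.

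NF-kB is a dimer of Rel family subunits. In resting cells IkB proteins hold it in the cytoplasm; a signal from a receptor activates the IkB kinase, IkB is degraded and the dimer enters the nucleus. There it induces its own brakes, among them the genes for IkB-alpha (NFKBIA) and for the ubiquitin-editing enzyme TNFAIP3, so the RNA of these feedback genes is often used as a readout of pathway activity. In B cell precursors the pathway acts downstream of the pre-B cell receptor and of TNF family receptors.

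Promoter sequence is shown first because most of these genes are themselves textbook targets of NF-kB. RefSeq windows (GRCh38.p14) of 300 bases, from 250 bases before to 50 bases after a gene's start, were searched on both strands for GGGA and TTCC separated by any 2 bases, a strict form of the kB site. Windows were held for 8 of the 10 symbols, and 6 of these 8 genes had a match in at least 1 window: NFKBIA, TNFAIP3, CD83, NFKB1, NFKB2 and REL. Over all genes with a window the share was 1.97%, and over all 35116 windows it was 1.61%. RELA and BIRC3 had no match. The looser kB consensus, which allows either purine and either pyrimidines and so includes every strict match, was found in 7 of the 8 genes, against 13.3% of all genes. A match describes the letters in the window and does not show binding.

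These stretches show the matches with up to 20 bases on either side. That they lie close to a start site follows from the windows searched. The capitals mark the match or its reverse complement, and in CD83 and REL overlapping matches on both strands. They are read 5′ to 3′ on the gene's strand, from chr14:35404801-35404850 (minus strand), chr6:137867172-137867221, chr6:14117701-14117751, chr4:102501290-102501339, chr10:102395664-102395713 and chr2:60881507-60881557 (plus strand).
NFKBIA: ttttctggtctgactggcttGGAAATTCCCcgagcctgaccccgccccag
TNFAIP3: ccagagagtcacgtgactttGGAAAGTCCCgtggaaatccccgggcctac
CD83: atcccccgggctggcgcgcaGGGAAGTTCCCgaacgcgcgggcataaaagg
NFKB1: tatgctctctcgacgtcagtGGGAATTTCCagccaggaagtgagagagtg
NFKB2: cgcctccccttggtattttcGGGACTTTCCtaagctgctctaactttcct
REL: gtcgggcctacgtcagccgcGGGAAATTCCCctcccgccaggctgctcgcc

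NFKBIA and CD83, with the largest absolute log2 differences between treated and untreated BV-173 among the probe sets that stand for a gene, are shown with the whole window that holds the match. The NFKBIA match covers bases 81 to 72 before the start, in chr14:35404700-35404999 (minus strand). The CD83 matches cover bases 51 to 41 before the start, in chr6:14117522-14117821 (plus strand), 1 of 2 CD83 windows held.
NFKBIA: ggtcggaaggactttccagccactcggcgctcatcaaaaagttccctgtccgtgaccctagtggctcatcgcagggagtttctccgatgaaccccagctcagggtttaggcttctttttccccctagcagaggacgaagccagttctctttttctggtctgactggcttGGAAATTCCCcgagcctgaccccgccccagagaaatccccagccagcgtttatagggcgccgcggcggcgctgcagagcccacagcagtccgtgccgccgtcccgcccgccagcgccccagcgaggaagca
CD83: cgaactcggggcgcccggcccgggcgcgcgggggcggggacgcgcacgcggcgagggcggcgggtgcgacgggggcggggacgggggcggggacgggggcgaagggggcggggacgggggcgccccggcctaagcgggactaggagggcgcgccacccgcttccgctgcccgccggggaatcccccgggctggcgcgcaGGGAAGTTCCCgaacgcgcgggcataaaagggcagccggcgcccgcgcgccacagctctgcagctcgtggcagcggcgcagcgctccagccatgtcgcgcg

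Each array had been scaled to the same trimmed mean of 500.2, and its median signal was 107.6 in treated and 95.5 in untreated BV-173, and 106.6 in treated and 115 in untreated SUP-B15. The 18S ribosomal RNA control probe sets averaged 2817 in treated BV-173, against 1513 to 1596 in the other arrays, so that array stood apart. The ratio of 3′ to 5′ signal for GAPDH lay between 1.12 and 1.20, and that for ACTB between 2.08 and 2.40. Of 12 measured B cell precursor markers, 11 were above the array median in all 4 arrays; the exception was MME (CD10), with 18.3 in treated and 7.2 in untreated BV-173. Of 8 T cell, 9 monocyte and granulocyte and 5 erythroid markers, 0 were above it in all 4. Above it in all 4 were 1 of 6 NK cell markers, NKG7, and 2 of 5 plasma cell markers, JCHAIN and XBP1. Differences below are of log2(signal + 24.5), which understates the change of dim probe sets; where a gene had several kept probe sets, the brightest stands for it. Probe sets dimmer than the array median in all 4 arrays were left out of the fits, which removed 2 of the 14.

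The first question was whether inhibiting BCR-ABL1 changed the level of these genes over both lines. It did so detectably for 0 of the 9 measured genes (limma, both lines in 1 fit, adjusted p under 0.05), whereas 3.06% of the 7916 genes tested were called, 1.43% higher and 1.63% lower. At that rate fewer than 1 call in 9 genes is the background, so the count of 0 does not set these genes apart. At an unadjusted p under 0.05 there was 1 gene of 9, NFKBIA, against 12.4% of all genes, which is the background share. In RNA from bulk cells, fewer cells with a transcript and less of it per cell cannot be told apart. The median absolute shared difference of the 9 genes was 0.11, against 0.25 over all genes. Differences of opposite sign in the 2 lines offset each other in that value. Taken by line, the median absolute difference was 0.28 in BV-173, against 0.33 over all genes, and 0.098 in SUP-B15, against 0.32. The 95% interval of the shared difference lay inside 2-fold either way for 7 of the 9, against 59.5% of all genes; NFKB2 and CD83 were the exceptions. The fit has 1 residual degree of freedom and takes its error from the trend of spread with brightness, not from each gene's own spread, and the fit is what these intervals rest on.

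**Figure D1:**
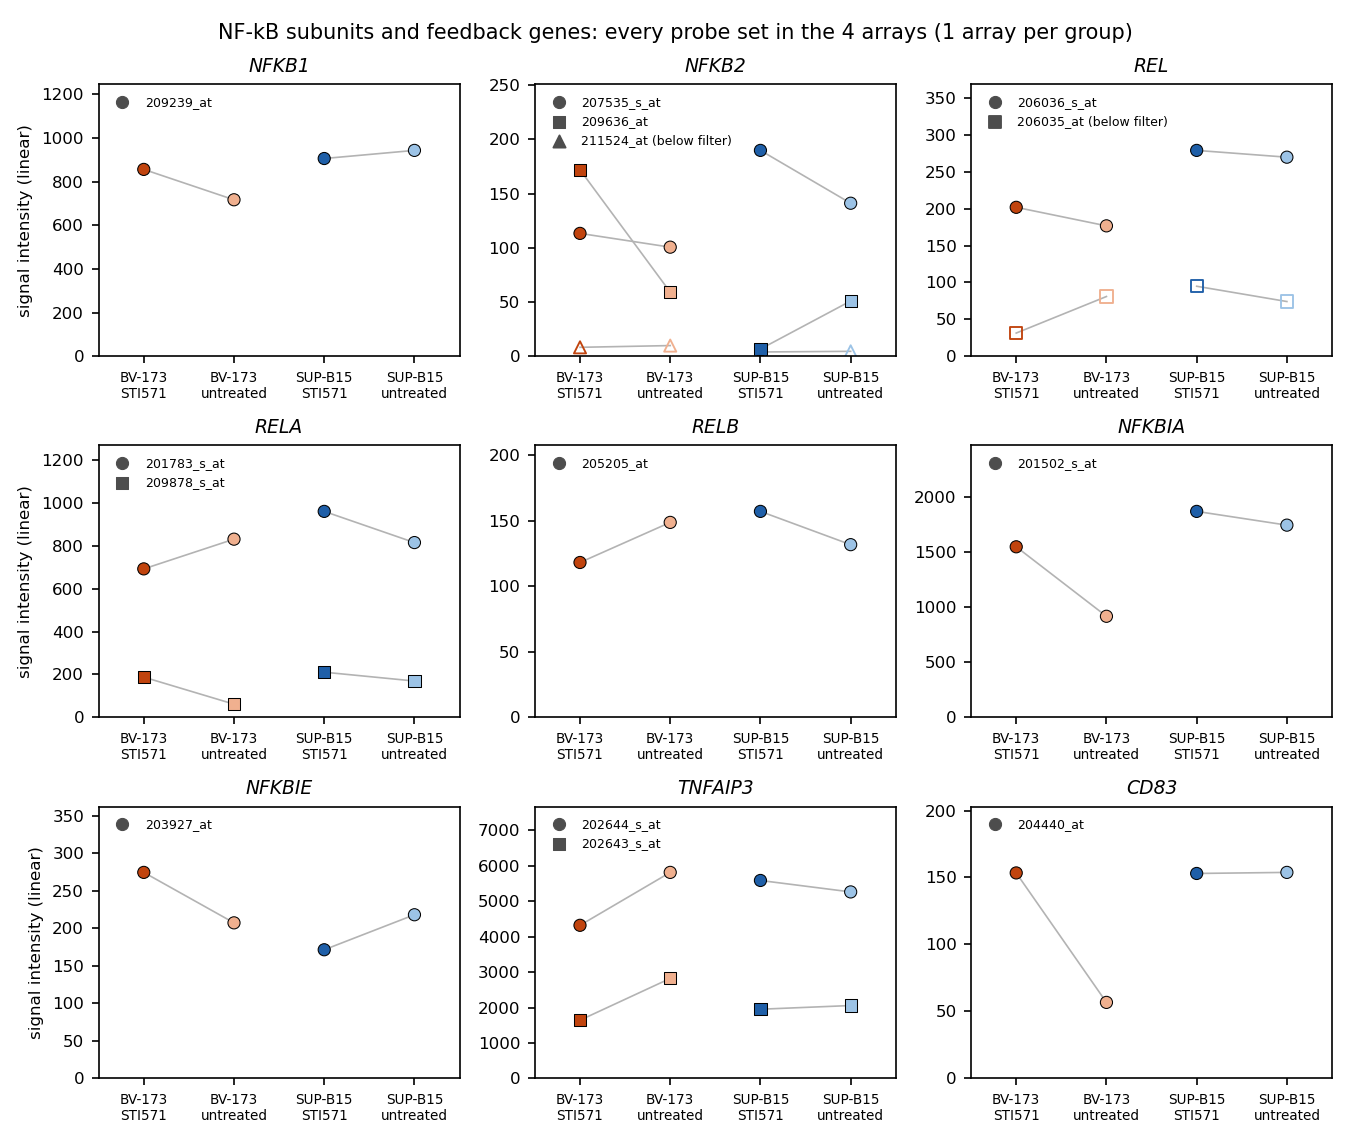
Signal intensity (linear, y axis from 0) of the 14 probe sets of 9 genes in each of the 4 arrays, with treated left of untreated in each line and a marker shape per probe set; there is 1 array per group and so no error bar. NFKBIA and CD83 are lower in untreated BV-173 than in the other 3 arrays, and probe sets of NFKB2, RELA and REL do not follow one another.

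Among the subunits, NFKB1, whose product is the precursor of a DNA-binding subunit, had signals of 856.2 in treated and 717.1 in untreated BV-173, and 906.1 in treated and 943.3 in untreated SUP-B15. The lines differed in sign, and the shared difference was 0.096 (SE 0.23, limma adjusted p = 0.948). RELA, the main transactivating subunit of the canonical pathway, had 693.3 in treated and 832.1 in untreated BV-173, and 961.8 in treated and 816.2 in untreated SUP-B15. The 2 lines offset each other, at -0.26 (BV-173) and 0.23 (SUP-B15) on the log2 scale, and the shared difference was -0.012 (SE 0.23).

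REL, the subunit typical of lymphoid cells, had 201.8 in treated and 176.7 in untreated BV-173, and 278.9 in treated and 269.7 in untreated SUP-B15. Its log2 differences were small and positive, 0.17 in BV-173 and 0.044 in SUP-B15. RELB, the subunit of the noncanonical pathway, had 118.2 in treated and 148.8 in untreated BV-173, and 157.2 in treated and 131.8 in untreated SUP-B15. Its shared difference was -0.032 (SE 0.48). NFKB2, the precursor that the noncanonical pathway processes, had 113.3 in treated and 100.6 in untreated BV-173, and 189.8 in treated and 141.1 in untreated SUP-B15 by its brightest probe set, with a shared difference of 0.26 (SE 0.49). None of the 5 subunits reached 2-fold in either line by these probe sets.

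Other probe sets of 3 subunit genes went different ways, at low signal. The second NFKB2 probe set, 209636_at, had 171.9 in treated and 59.2 in untreated BV-173, but 6.7 in treated and 51 in untreated SUP-B15. This was 2.35-fold higher in BV-173 and 2.42-fold lower in SUP-B15, while the brighter NFKB2 probe set was 1.10-fold and 1.29-fold higher. Probe set 209636_at passed the brightness filter through treated BV-173 alone, where it is high, so its differences are no more than a description. The second RELA probe set, 209878_s_at, had 187.7 in treated and 61.4 in untreated BV-173, and 210.8 in treated and 169.5 in untreated SUP-B15. It was 2.47-fold higher in treated BV-173, where the brighter RELA probe set was 1.19-fold lower. When every kept probe set was tested on its own, neither was called (limma adjusted p = 0.998 for NFKB2 and 0.517 for RELA). REL 206035_at, at 31.5 in treated and 81 in untreated BV-173 and 94.9 in treated and 74.2 in untreated SUP-B15, and NFKB2 211524_at, at 4 to 9.9, did not pass the filter.

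Of the inhibitors, NFKBIA had 1548 in treated and 917.2 in untreated BV-173, and 1869.4 in treated and 1744.6 in untreated SUP-B15. Untreated BV-173 was the low array; the other 3 lay within a narrower range. The log2 difference was 0.74 (1.67-fold) in BV-173 and 0.098 (1.07-fold) in SUP-B15. The shared difference of 0.42 (SE 0.21) did not pass (limma adjusted p = 0.403, unadjusted p = 0.0499). NFKBIE, which encodes IkB-epsilon, had 274.7 in treated and 207.4 in untreated BV-173, and 171.5 in treated and 218.2 in untreated SUP-B15. Its log2 differences were 0.37 in BV-173 and -0.31 in SUP-B15, so the shared difference was 0.030 (SE 0.37).

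TNFAIP3, the feedback inhibitor upstream of the IkB kinase, had 4321.6 in treated and 5816 in untreated BV-173, and 5588.1 in treated and 5264.4 in untreated SUP-B15. The second TNFAIP3 probe set, 202643_s_at, had 1641.1 in treated and 2821.9 in untreated BV-173, and 1951.2 in treated and 2055.7 in untreated SUP-B15. Both probe sets were lower in treated than in untreated BV-173, with log2 differences of -0.43 and -0.77, and near level in SUP-B15, at 0.086 and -0.074. TNFAIP3 was not called by either (adjusted p = 0.856 in the fit by gene, and 0.388 for the second probe set when each was tested on its own). In BV-173 the NFKBIA and TNFAIP3 signals therefore differed in opposite directions.

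CD83, a surface protein of activated B cells and mature dendritic cells, had 153.4 in treated and 56.7 in untreated BV-173, and 153 in treated and 153.8 in untreated SUP-B15. It was 2.19-fold higher in treated BV-173 and level in SUP-B15 (log2 difference -0.0065), with a shared difference of 0.56 (SE 0.51, limma adjusted p = 0.785). CD83 was the 1 gene of 9 past 2-fold in BV-173, where 11.6% of all genes were, and 0 of 9 were past it in SUP-B15, where 9.83% were. These shares are at or near the background. The CD83 signal of untreated BV-173 lay below that array's median, and with a pseudocount of 98 CD83 was under 2-fold. Dendritic cell markers summed to 276.6 in treated and 226.8 in untreated BV-173, and 297.5 in treated and 349.9 in untreated SUP-B15; of the 6 measured, 0 were above the median in all 4 arrays and 3 were below it in all 4. In BV-173 these markers went both ways. Higher in treated cells were IL3RA (131.5 in treated and 53.1 in untreated), CCR7 (78.9 and 52.2) and FCER1A (11.6 and 6.8). Lower were CLEC10A (44.3 in treated and 97.5 in untreated), CD1C (7.6 and 13.1) and LAMP3 (2.7 and 4.1). The part of such markers in the CD83 difference was not tested.

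The BV-173 differences of NFKBIA, CD83 and TNFAIP3 rest on 1 array per group and have no replicate check. The treated BV-173 array is the one with the high 18S signal. Untreated BV-173, where NFKBIA and CD83 were low, is the array with the lowest median signal, 95.5. With arrays scaled to a common median, CD83 was still past 2-fold in BV-173. It was under 2-fold with a pseudocount of 98. Under the common median the shared NFKBIA difference was 0.39. NFKBIA's call for the difference between the lines, described below, was lost under that scaling (limma adjusted p = 0.216, against 0.0235). The part of either array in the BV-173 differences was not tested further. Of the 9 genes, 6 had a log2 difference of opposite sign in the 2 lines, against 44.5% of all genes. The difference between the lines' responses could not be tested, since it leaves no residual degree of freedom.

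**Figure D2:**
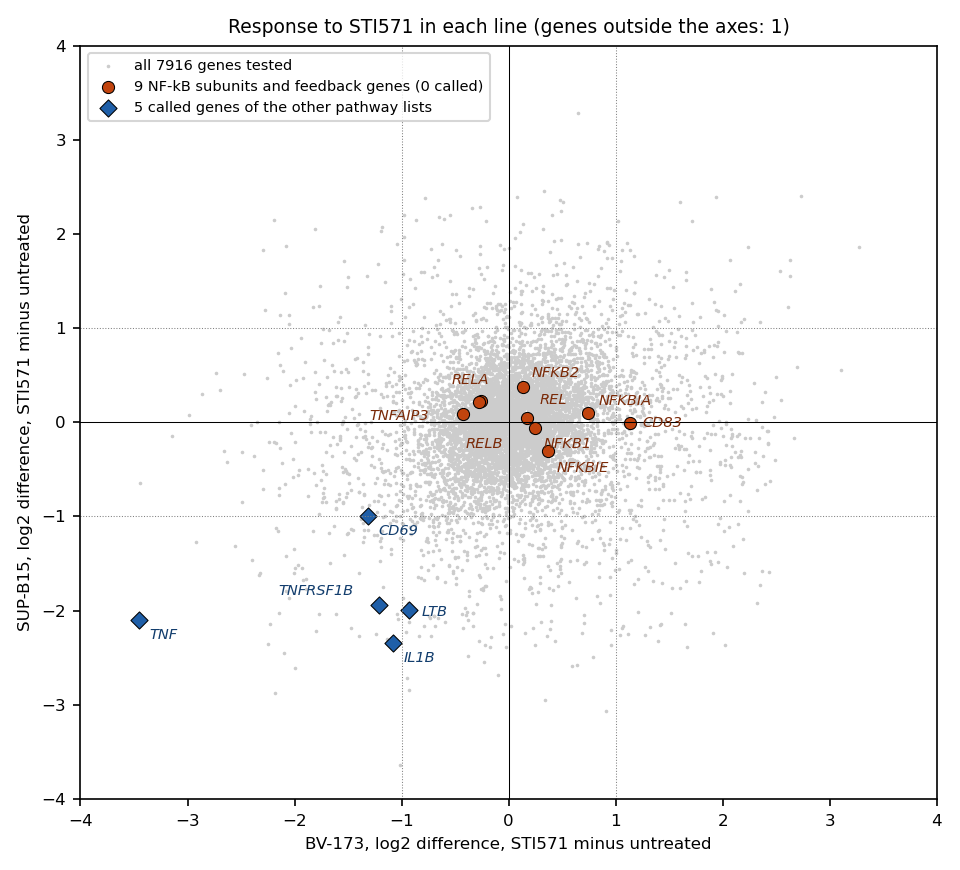
Log2 difference, STI571 minus untreated, in BV-173 (x axis) and SUP-B15 (y axis) for 7916 genes (grey), the 9 NF-kB subunits and feedback genes (red) and the 5 other pathway genes that were called (blue diamonds); dotted lines mark 2-fold. The red points span -0.31 to 0.37 on the SUP-B15 axis and -0.43 to 1.13 on the BV-173 axis, and the blue points lie at the lower left.

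CD83 had the largest absolute shared difference of the 9 genes, and the genes whose centred log2 values over the 4 arrays were nearest to its own were CASP2, TTLL4 and RBKS, at Euclidean distances of 0.091 to 0.14. Among the NF-kB genes NFKBIA was nearest, at 0.29, and TNFAIP3 furthest, at 1.19. With 4 arrays this says only that these genes were also low in untreated BV-173.

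The second question was whether the lines differ in these genes. NFKBIA was the 1 gene of 9 called, 1.5-fold higher in SUP-B15 than in BV-173 (log2 difference 0.59, SE 0.21, limma adjusted p = 0.0235). Over all genes 29.0% were called for the line, 14.5% higher and 14.5% lower in SUP-B15, so 1 in 9 is not above the background. The NFKBIA difference came mostly from the untreated arrays, at 0.91, and was 0.27 between the treated arrays. Its call ended with arrays scaled to a common median (adjusted p = 0.216), without an intensity trend (0.255) and without treatment as a term (0.173); its range over the alternatives was 0.0141 to 0.255.

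CD83 gave the same picture with no call: 1.13 between the untreated arrays and -0.0032 between the treated arrays (limma adjusted p = 0.448). By its kept probe set REL was higher in SUP-B15 in both states, by 0.42 between the treated and 0.55 between the untreated arrays. It was not called (limma adjusted p = 0.332). REL 206035_at, which did not pass the filter, gave 1.09 between the treated and -0.096 between the untreated arrays. The probe sets of NFKB2 disagreed: the brightest gave 0.64 between the treated and 0.40 between the untreated arrays (adjusted p = 0.463), and 209636_at gave -2.65 and -0.15. NFKBIE was lower in SUP-B15 on average (-0.27, SE 0.37) and was not called. The median absolute line difference was 0.27 for the 9 genes and 0.50 for all genes.

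**Figure D3:**
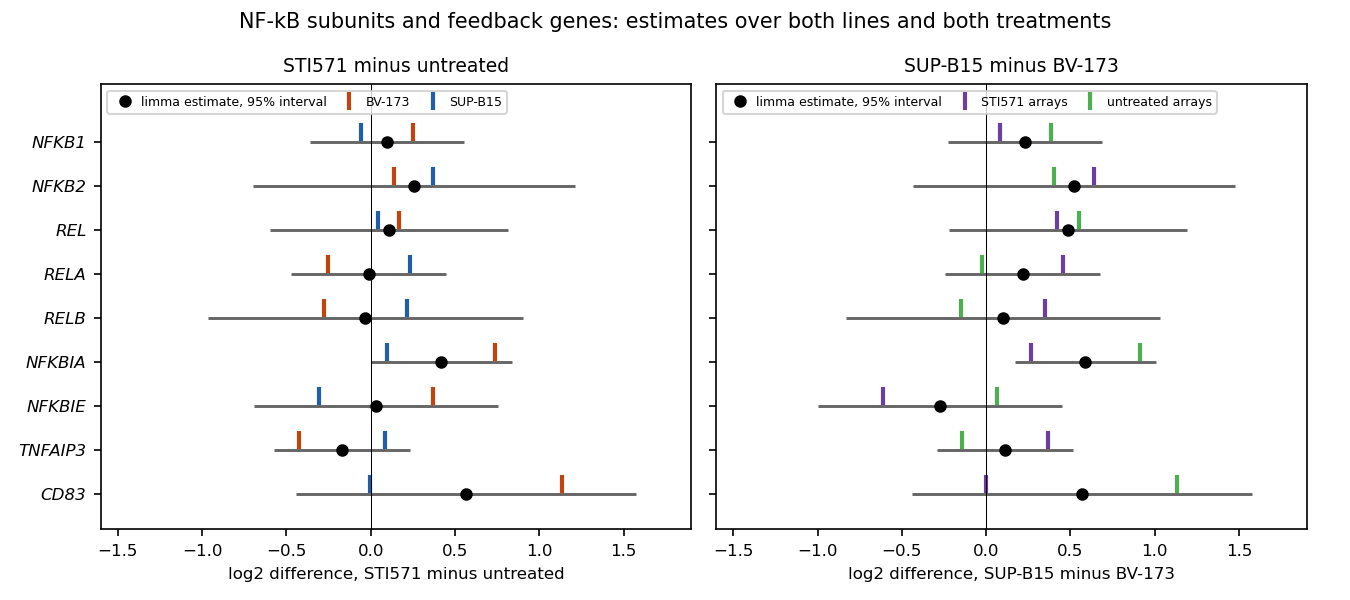
Limma estimates (points) with 95% intervals (bars) of the log2 difference for each of 9 genes, STI571 minus untreated (left) and SUP-B15 minus BV-173 (right), with coloured ticks for the 2 single-pair differences behind each. On the left every interval but that of NFKBIA spans 0, and that one starts at 0.00021; on the right the NFKBIA interval, 0.17 to 1.01, is the one that lies clear of 0.

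The rest of the pathway was described by lists of 110 further genes, of which 65 were measured. Of these 65, 5 were called lower after STI571, where 1.63% of all genes were, 0 were called higher, where 1.43% were, and 60 neither. Their median absolute shared difference was 0.32, against 0.25 over all genes. The lists were drawn up with earlier results of these data known, so these counts are a description. The genes called lower were ligands, a receptor and an activation marker. TNF, a cytokine that both activates NF-kB and is induced by it, had 8.4 in treated and 336.7 in untreated BV-173, and 11.9 in treated and 131.3 in untreated SUP-B15 (shared log2 difference -2.78, SE 0.76, limma adjusted p = 0.0137). TNF passed the brightness filter through its untreated arrays alone, where it is high, so its call is no more than a description; with no filter on brightness its adjusted p was 0.00731. Its receptor TNFRSF1B had 229.6 in treated and 565.3 in untreated BV-173, and 106.7 in treated and 479.5 in untreated SUP-B15 (-1.58, SE 0.32, adjusted p = 0.000145).

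The lymphotoxin gene LTB, which encodes a ligand of the noncanonical pathway, had 264.5 in treated and 524.6 in untreated BV-173, and 64.9 in treated and 331.1 in untreated SUP-B15 (-1.46, SE 0.35, limma adjusted p = 0.00238). IL1B, an inflammatory cytokine, had 28.2 in treated and 86.8 in untreated BV-173, and 395.7 in treated and 2105.3 in untreated SUP-B15 (-1.71, SE 0.35, adjusted p = 0.000142). CD69, an early activation antigen of the target list that is named here because it was called, had 854.8 in treated and 2160.6 in untreated BV-173, and 111.1 in treated and 246 in untreated SUP-B15 (-1.15, SE 0.27, adjusted p = 0.00132). All 5 were lower in both lines, and all 5 calls ended without an intensity trend (limma adjusted p = 0.548). For IL1B the treated and untreated BV-173 signals both lay below the array median, so it passed the brightness filter through SUP-B15 alone. With treated signals under the added 24.5, the TNF difference was -4.26 with a pseudocount of 1 and -1.55 with one of 98. LTB carries the strict kB match in its promoter, at chr6:31582482-31582531 (minus strand), and the TNF, IL1B and TNFRSF1B windows hold none.
LTB: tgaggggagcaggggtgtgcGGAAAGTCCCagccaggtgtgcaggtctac

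By list, the counts were as follows. Of 23 other NF-kB target genes, 4 were called lower, against 1.63% of all genes, and 0 higher. Their median shared difference was -0.0065, against 0.017 for all genes. The adhesion molecule ICAM1, at -1.23, was not called (limma adjusted p = 0.615), and it was at -0.65 with the mean of probe sets. ICAM1 passed the brightness filter through untreated SUP-B15 alone, where it is high, so its difference is no more than a description. Of 11 receptors, TNFRSF1B was the 1 called; LTBR, the lymphotoxin receptor, had 127.2 in treated and 251.7 in untreated BV-173, and 156.3 in treated and 16.3 in untreated SUP-B15. Of 13 IkB kinase subunits and upstream kinases, 0 were called. The largest difference was that of MAP3K14, the kinase of the noncanonical pathway, at 0.73 (SE 0.70, limma adjusted p = 0.801). MAP3K14 passed the brightness filter through treated BV-173 alone, where it is high, so its difference is no more than a description.

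Of 17 adaptors and ubiquitin enzymes, 0 were called. BIRC2, which encodes a ubiquitin ligase of the same family as BIRC3, had 2062 in treated and 1154.7 in untreated BV-173, and 2119.3 in treated and 1620.3 in untreated SUP-B15 (0.60, SE 0.21, limma adjusted p = 0.096). MYD88, the adaptor of Toll-like receptors, was at 0.51 (BV-173) and 0.52 (SUP-B15) on the log2 scale (adjusted p = 0.22), and MALT1, the protease that links antigen receptors to NF-kB, -0.52 and -0.47 (adjusted p = 0.406). NFKBIB was the 1 other IkB gene measured, at -0.055. Between the lines, 5 of the 65 were called higher and 11 lower in SUP-B15, where 14.5% of all genes were called each way. PRKCB, the protein kinase C isoform of B cell receptor signalling, had 3365.9 in treated and 4551.5 in untreated SUP-B15. Its BV-173 signals were 21.5 in treated and 58 in untreated cells. Limma called this line difference at an adjusted p of 1.02e-103, with the trend-based error. PRKCB passed the brightness filter through its SUP-B15 arrays alone, where it is high, so its call is no more than a description. CD44, an adhesion receptor of the target list that is named here because it was called for the line, had 72.4 in treated and 158.2 in untreated SUP-B15. In BV-173 it had 1493.9 in treated and 2165.8 in untreated cells.

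**Figure D4:**
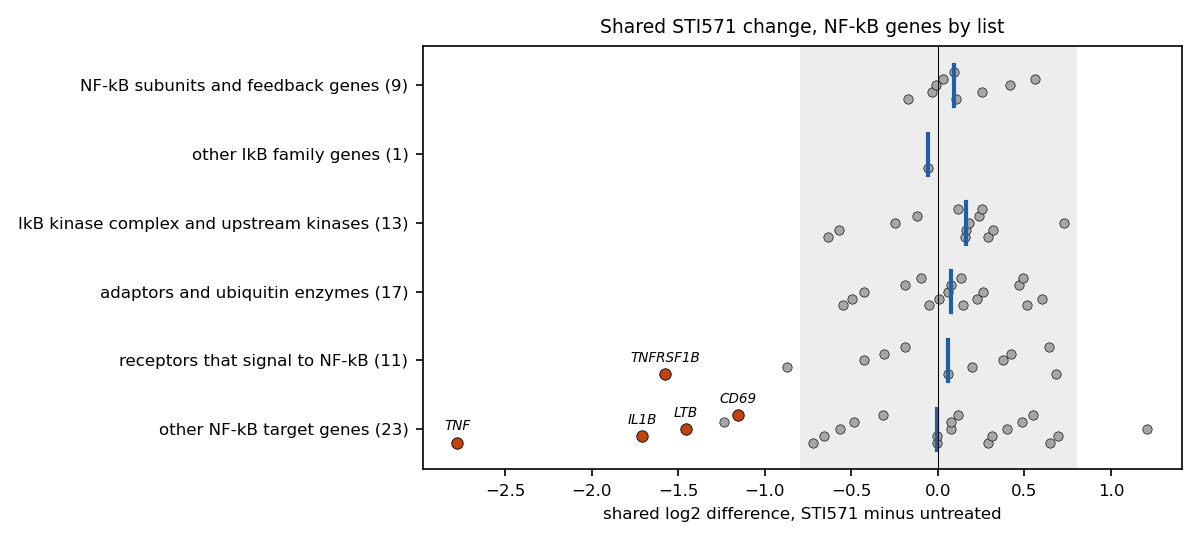
Shared log2 difference, STI571 minus untreated, of each measured gene (points) by list, with the number measured in brackets, the list's median (blue bar) and called genes in red; the grey band spans the 5th to the 95th percentile of all genes, -0.79 to 0.80. The 9 NF-kB subunits and feedback genes all lie inside the band, and the 5 called genes lie left of it.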

How the data were processed

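Total RNA was extracted with a Qiagen kit and labelled with biotin by standard Affymetrix methods, per the labels' protocols, and the submitters' processing notes name GCOS 1.3. The authors deposited linear signal intensity for each probe set. Columns had a 2%-trimmed mean of 500.2; how probes were summarised is not given in the sources used here. Detection calls were not used here.

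Of 22277 probe sets, 62 were controls; 19064 named 1 symbol and were used, 1043 named several and 2108 none. Symbols were checked by Entrez ID against RefSeq (19052 matched, 0 updated). Log2(signal + 24.5) was used, 24.5 being the 25th percentile of all signals. Leaving out probe sets below the 50th percentile of all 4 arrays and taking the brightest per gene left 7916 of 11963 genes. Limma 3.58.1 in R 4.3.3 fitted cell line and treatment to all 4 arrays, with an intensity trend (prior degrees of freedom infinite) and Benjamini-Hochberg adjustment at 0.05, two-sided. Treated and untreated arrays of a line are paired by that line, per the labels. Scripts were checked on simulated data. Genes named were every subunit and feedback gene, and the 3 nearest in pattern to the one that moved most. The list genes named came from the up to 4 per list with the largest absolute shared difference, not all of which are named. CD69, called for STI571, and CD44, called for the line, were named outside this rule. The 10 genes and the lists were chosen with earlier results of these data known. Replicate arrays were not analysed here, so p-values do not measure spread between cultures.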

Additional observations from a re-analysis of the deposited data

Results flagged for a closer look

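In 7 of the 12 kept probe sets STI571 and untreated signals differed in opposite directions in the 2 lines, with 1 array per group, so the difference was not tested. By the brightest probe set per gene, 6 of the 9 genes did so, against 44.5% of all genes. CD83 is among them although it was level in SUP-B15 (-0.0065). The SUP-B15 difference minus the BV-173 difference, on the log2 scale, was -2.51 for NFKB2 (209636_at), -1.14 for CD83, -0.68 for NFKBIE, -0.30 for NFKB1, 0.49 for RELA (201783_s_at), 0.50 for RELB and 0.51 for TNFAIP3 (202644_s_at). NFKB2 209636_at was the widest apart, and its signal of 6.7 in treated SUP-B15 was the lowest of any kept probe set of these genes. It passed the filter through treated BV-173 alone, where it is high.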

How the results depend on the processing

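Of 12 alternatives, 0 gave a call for STI571 in any of the 9 genes; the adjusted p nearest the threshold was 0.28, for NFKBIA with a 75th percentile filter, which kept 4 of the 9 genes. Genes called for STI571 over all genes were 242, but 157 with a common median, 116 with the mean of probe sets, 137 with gene-specific probe sets, and 0 without an intensity trend (669 at an unadjusted p under 0.05). Without the replicate block, that is the cell line as a term, 0 were called (73 at an unadjusted p under 0.05). That fit counts the line difference as spread. The calls of TNF, IL1B, LTB, TNFRSF1B and CD69 ended in those last 2 fits, and TNF's also with the mean of probe sets (adjusted p = 0.0567). Genes called for the line were 2296, but 1347 with gene-specific probe sets, 678 without a trend and 1471 without treatment as a term. NFKBIA's call for the line was lost with a common median, without a trend and without treatment as a term (0 of 9 called each time). Gene-specific probe sets leave out its probe set, and 0 of the 5 genes then left were called. The 1 gene past 2-fold in BV-173 became 0 with a pseudocount of 98, 2 with gene-specific probe sets, 0 with the 75th percentile filter, 3 with every kept probe set, 2 at 1.5-fold and 0 at 3-fold. In SUP-B15 the count of 0 became 1 with gene-specific and 1 with every kept probe set, in both cases NFKB2. The NFKB2 counts come from 209636_at, which passed the filter through treated BV-173 alone. Signs turned for the shared difference of NFKB2 (-0.022 with gene-specific probe sets) and RELA (0.39 with the mean of probe sets, 0.79 for its second probe set). For the line difference they turned for NFKB2 (-0.44 with the mean, -1.40 for its second probe set, alone or as the gene-specific one), RELB (-0.014 with quantile normalization, -0.0091 with a common median) and TNFAIP3 (-0.014 with a common median). For the probe set choices another probe set supplied the value; for the scalings the cause was not tested. A robust prior left the prior degrees of freedom infinite and gave the same counts as the fit reported, so it adds no separate check.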
